A study of Mus musculus with 12 samples.

Results

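The 9 genes described here are the hedgehog ligand *Ihh*, the membrane proteins *Ptch1* and *Smo*, the transcription factors *Gli1*, *Gli2* and *Gli3*, the ligand-binding inhibitor *Hhip*, the gene for parathyroid hormone-related protein (*Pthlh*) and the parathyroid hormone receptor *Pth1r*. They were chosen by gene symbol from the 47069 genes of the deposited count matrix, and all 9 were found once. Levels were measured by poly(A) RNA sequencing of marrow-flushed tibia shafts from 12 male mice aged 8 weeks, 4 per group. WT mice carried normal *Col1a1* and *Sost* alleles and came from a separate parallel colony, so colony and genotype cannot be told apart in comparisons with WT. The other groups, Jrt;Sost-het and Jrt;Sost-ko, both carried the Col1a1Jrt/+ allele, a splice-donor variant that removes an exon from the type I collagen alpha 1 chain and models severe dominant osteogenesis imperfecta. The labels of Jrt;Sost-ko mice add Sost-/-, the loss of sclerostin, a Wnt inhibitor made by osteocytes, whereas the Sost+/- genotype of Jrt;Sost-het mice is given by the study's methods and not by the labels. All mice were of mixed FVB/C57BL6 background, and label order gave the mice of a group their numbers, 1 to 4.

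In the hedgehog pathway, a secreted ligand binds Ptch1 and thereby releases Smo, which acts through the primary cilium to switch Gli factors from repressors to activators. *Gli1*, *Ptch1* and *Hhip* are themselves induced by the pathway and serve as its usual readouts. In growing long bones, *Ihh* is made by prehypertrophic chondrocytes of the growth plate, and parathyroid hormone-related protein, acting through Pth1r, delays the differentiation of these cells and so limits *Ihh*. Pth1r is also abundant in osteoblasts and osteocytes, where its cAMP signal lowers *Sost*.

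The members lie on 6 chromosomes of the GRCm38 build (GENCODE M21), all annotated as protein coding. *Ihh* (ENSMUSG00000006538) occupies chr1:74945315-74951672 and *Gli2* (ENSMUSG00000048402) chr1:118834132-119053619, both on the minus strand. *Smo* (ENSMUSG00000001761, plus strand) occupies chr6:29735503-29761365 and *Pthlh* (ENSMUSG00000048776, minus strand) chr6:147252101-147264183. *Hhip* (ENSMUSG00000064325) lies at chr8:79965851-80058006, *Pth1r* (ENSMUSG00000032492) at chr9:110722085-110747145 and *Gli1* (ENSMUSG00000025407) at chr10:127329882-127341974, all on the minus strand. On chromosome 13, *Ptch1* (ENSMUSG00000021466, minus strand) spans 63508328 to 63573598 and *Gli3* (ENSMUSG00000021318, plus strand) spans 15463235 to 15730026.

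The stretches of sequence before start sites that are shown are those of the ligand, of its receptor and its inhibitor, and of the one member searched that holds the letters of a Gli site. Each is the 250 bases before the RefSeq start (GRCm38.p6), written 5′ to 3′ on the gene's own strand, which is the minus strand for all of them. The stretches are chr1:74951673-74951922 for *Ihh*, chr13:63565736-63565985 for *Ptch1*, chr8:80058009-80058258 for *Hhip* and chr1:119053620-119053869 for *Gli2*, and none overlaps an exon of the annotation. The stretch of *Ptch1* lies inside the gene as annotated (63508328 to 63573598), at an internal start, while the others lie outside their genes. Capitals mark GGGTGGT, the reverse complement of the short Gli core ACCACCC, in *Gli2*, the cAMP response element TGACGTCA in *Hhip*, and CGTCA, the reverse complement of its shortened form TGACG, in *Ihh*.
Ihh: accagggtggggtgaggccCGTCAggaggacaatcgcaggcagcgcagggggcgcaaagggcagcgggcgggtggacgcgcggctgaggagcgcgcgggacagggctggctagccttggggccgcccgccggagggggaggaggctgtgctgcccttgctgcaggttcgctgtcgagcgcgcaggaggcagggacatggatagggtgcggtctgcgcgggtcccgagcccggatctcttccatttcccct
Ptch1: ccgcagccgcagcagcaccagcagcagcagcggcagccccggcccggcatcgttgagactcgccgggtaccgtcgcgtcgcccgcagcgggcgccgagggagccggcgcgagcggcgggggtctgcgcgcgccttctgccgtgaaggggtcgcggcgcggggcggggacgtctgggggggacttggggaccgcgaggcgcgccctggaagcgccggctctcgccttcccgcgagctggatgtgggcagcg
Hhip: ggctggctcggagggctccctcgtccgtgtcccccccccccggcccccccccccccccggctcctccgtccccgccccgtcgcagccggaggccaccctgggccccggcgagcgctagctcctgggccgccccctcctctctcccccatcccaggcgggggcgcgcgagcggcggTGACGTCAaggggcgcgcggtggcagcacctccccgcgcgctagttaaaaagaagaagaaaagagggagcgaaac
Gli2: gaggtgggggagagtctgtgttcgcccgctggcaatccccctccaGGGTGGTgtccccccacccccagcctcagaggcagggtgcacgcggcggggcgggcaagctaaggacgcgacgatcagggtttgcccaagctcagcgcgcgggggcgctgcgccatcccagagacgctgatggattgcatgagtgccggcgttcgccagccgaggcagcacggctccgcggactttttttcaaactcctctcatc

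Motifs were searched on both strands in windows from 250 bases before to 50 bases after each start, of which 8 of the 9 members, all but *Gli1*, have at least 1 and *Pth1r* has 3. The bases before the annotated 5′ end of *Ptch1* were not searched, since its window lies at an internal start. The letters GACCACCCA, the longer Gli core, are in 0.253% of 32851 mouse promoter windows and in no window of these 8. The shorter core ACCACCC is in 4.61% of windows and, among the 8 members searched, in *Gli2* alone, at position -205 from the start. The full TGACGTCA is in 1.79% of windows and was found in *Hhip*, at position -75, where it also holds the shortened form on each strand. The shortened form TGACG is in 20.8% of windows, and besides *Hhip* it was found in *Ihh*, in 1 window of *Pth1r* and in *Gli3*. A match gives only the letters present, and these data hold no measurement of binding at the promoters.

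*Sost* was read first as a check of the genotypes. It had 50.7, 72.3, 62.2 and 28.5 CPM (counts scaled to library size and normalized over the 12 libraries) in WT mice 1 to 4, 28.0, 34.6, 70.4 and 26.8 CPM in Jrt;Sost-het mice, and 0.571, 1.28, 0.508 and 0.326 CPM in Jrt;Sost-ko mice. Every Jrt;Sost-ko mouse was below every other mouse, with a log2 fold change of -5.87 (SE 0.485) against Jrt;Sost-het (edgeR's quasi-likelihood test with Benjamini-Hochberg adjustment, adjusted p = 0.013). In this comparison no gene, *Sost* included, was called by limma-voom, with muscle markers as a covariate, or without Jrt;Sost-ko 1, 3 or 4. The levels of single mice given above do not depend on these fits. Jrt;Sost-het mice were not separated from WT (log2 fold change -0.41, SE 0.368, edgeR adjusted p = 1), and Jrt;Sost-het 3 was above 3 of the 4 WT mice, so these levels do not check the Sost+/- genotype. Counts on genes were 24366061 to 44418863 per mouse, with Jrt;Sost-het mice at the lower end (24366061 to 29431764).

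None of the 9 genes passed the test for a difference between genotypes. Levels varied widely between single mice of a group, and for each of the 9 genes the highest mouse was either Jrt;Sost-het 1 or WT 4. WT 4 had the highest level for 7 members and Jrt;Sost-het 1 for 2, *Ihh* and *Gli2*, while WT 2 had the lowest level for 7 members and Jrt;Sost-ko 4 for the other two. Jrt;Sost-het 1 was among the 3 highest mice for 7 members and WT 4 for all 9.

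**Figure D1:**
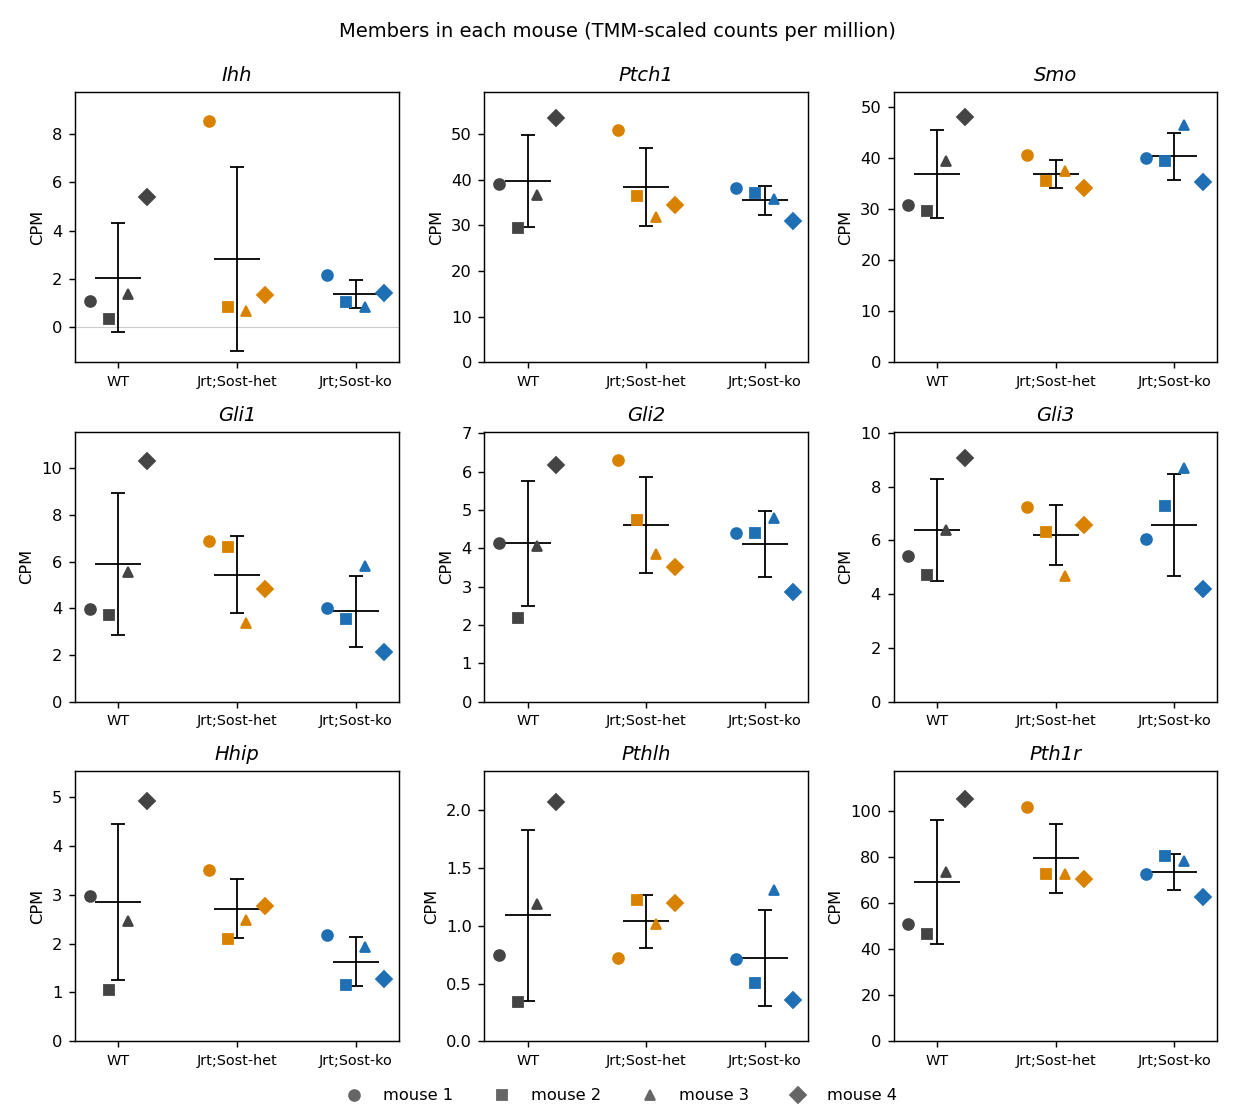
CPM of each member (vertical axis, linear from 0 or below) in 4 mice of each group (horizontal axis), with the symbol giving the mouse number and the bar and whiskers the mean and SD. The groups overlap for all 9 genes, and for *Ihh* the 5.37 CPM of WT 4 and the 8.54 CPM of Jrt;Sost-het 1 stand above the other mice.

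The ligand *Ihh* varied most. Its level was 1.07, 0.342, 1.37 and 5.37 CPM in WT mice 1 to 4, 8.54, 0.813, 0.640 and 1.32 CPM in Jrt;Sost-het mice and 2.14, 1.01, 0.829 and 1.40 CPM in Jrt;Sost-ko mice. A single mouse was high in each of the WT and Jrt;Sost-het groups and the groups overlapped. The highest mouse was 25.0 times the lowest, on counts from 10 to 226. Group means were 2.04 ± 2.26 CPM (SD, n = 4) in WT, 2.83 ± 3.82 CPM in Jrt;Sost-het and 1.35 ± 0.582 CPM in Jrt;Sost-ko mice. Fitted by edgeR, the log2 fold change of Jrt;Sost-ko relative to Jrt;Sost-het was -1.08 (95% interval -2.90 to 0.75; edgeR adjusted p = 0.901), and it became 0.53 without Jrt;Sost-het 1, so a single mouse set its direction.

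*Ptch1*, the receptor that hedgehog ligands bind, had 39.0, 29.5, 36.7 and 53.6 CPM in WT mice, 50.9, 36.4, 31.9 and 34.5 CPM in Jrt;Sost-het mice and 38.2, 37.2, 35.8 and 31.0 CPM in Jrt;Sost-ko mice. WT 4 and Jrt;Sost-het 1 were again the highest, and the Jrt;Sost-ko mice lay within the range of WT, with 1 below the lowest Jrt;Sost-het mouse. Jrt;Sost-ko relative to Jrt;Sost-het gave a log2 fold change of -0.11 (95% interval -0.44 to 0.21).

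*Smo*, the signal transducer held back by Ptch1, was the steadiest member, with the highest mouse 1.63 times the lowest. It had 30.8, 29.5, 39.5 and 48.0 CPM in WT mice, 40.6, 35.5, 37.4 and 34.2 CPM in Jrt;Sost-het mice and 40.03, 39.4, 46.6 and 35.2 CPM in Jrt;Sost-ko mice. The mutant groups overlapped, and both fell within the range of WT. The interval of the log2 fold change of Jrt;Sost-ko relative to Jrt;Sost-het ran from -0.08 to 0.34 and was the narrowest of the 9.

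*Gli1*, the Gli factor that the pathway induces, had 3.97, 3.72, 5.58 and 10.3 CPM in WT mice, 6.88, 6.64, 3.39 and 4.84 CPM in Jrt;Sost-het mice and 4, 3.54, 5.80 and 2.12 CPM in Jrt;Sost-ko mice. WT 4 was the highest and Jrt;Sost-ko 4 the lowest of all mice. The log2 fold change was -0.49 (SE 0.323) for Jrt;Sost-ko relative to Jrt;Sost-het and -0.60 against WT (-0.36 with muscle markers as a covariate), neither past the threshold (edgeR adjusted p = 0.901 and 0.9996). Without Jrt;Sost-ko 4 the first became -0.30 and without Jrt;Sost-ko 3 -0.76, and without WT 4 the second became -0.19.

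*Gli2*, the main activator of hedgehog targets, had 4.14, 2.19, 4.05 and 6.18 CPM in WT mice, 6.31, 4.75, 3.84 and 3.52 CPM in Jrt;Sost-het mice and 4.39, 4.40, 4.79 and 2.87 CPM in Jrt;Sost-ko mice. *Gli3*, which acts mainly as a repressor, had 5.41, 4.72, 6.39 and 9.06 CPM in WT mice, 7.26, 6.30, 4.67 and 6.58 CPM in Jrt;Sost-het mice and 6.07, 7.29, 8.69 and 4.21 CPM in Jrt;Sost-ko mice. The group means of each gene were close, at 4.14, 4.604 and 4.11 CPM for *Gli2* and 6.39, 6.202 and 6.56 CPM for *Gli3* in the order WT, Jrt;Sost-het, Jrt;Sost-ko. The log2 fold changes of Jrt;Sost-ko relative to Jrt;Sost-het were -0.16 (95% interval -0.68 to 0.36) for *Gli2* and 0.08 (-0.44 to 0.61) for *Gli3*.

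*Hhip*, which binds and sequesters hedgehog ligands, came nearest to a difference. Its level was 2.97, 1.06, 2.47 and 4.93 CPM in WT mice, 3.52, 2.10, 2.48 and 2.77 CPM in Jrt;Sost-het mice and 2.18, 1.16, 1.93 and 1.27 CPM in Jrt;Sost-ko mice. Of the Jrt;Sost-ko mice, 3 of 4 were below every Jrt;Sost-het mouse, and mouse 1 was above Jrt;Sost-het 2. The means were 1.63 ± 0.496 and 2.72 ± 0.598 CPM (SD, n = 4), a fitted fold of 0.601 (log2 fold change -0.73, SE 0.259), which did not pass the threshold over all genes (edgeR adjusted p = 0.901). The exact two-sided permutation test of the 8 mice gave p = 0.0571, where the smallest possible value is 0.0286. By its unadjusted p, *Hhip* ranked 342 of 16739 genes. Against WT the log2 fold change was -0.81 (95% interval -1.80 to 0.19), with no Jrt;Sost-ko mouse below the lowest WT mouse. It was -0.41 without WT 4, -0.30 without WT 3 and WT 4, and -0.52 with muscle markers as a covariate.

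*Pthlh*, the ligand of Pth1r made in the growth plate and by osteoblast-lineage cells, was scarce, at 10 to 75 counts per mouse. It had 0.749, 0.342, 1.19 and 2.08 CPM in WT mice, 0.718, 1.22, 1.02 and 1.20 CPM in Jrt;Sost-het mice and 0.714, 0.506, 1.31 and 0.359 CPM in Jrt;Sost-ko mice. The highest WT mice, WT 3 and WT 4, were those that carried skin transcripts (241 and 930 CPM of summed epidermis and hair follicle markers). Jrt;Sost-het 2, Jrt;Sost-het 4 and Jrt;Sost-ko 3, without that carry-over, were nevertheless above WT 3. The part of skin in the level of *Pthlh* was not tested. In Jrt;Sost-ko mice, 3 of 4 were below the lowest Jrt;Sost-het mouse and mouse 3 was above the highest. The fitted fold of Jrt;Sost-ko relative to Jrt;Sost-het was 0.703, with a wide interval from 0.379 to 1.30 (log2 fold change -0.51). This value moved with single mice, to -0.98 without Jrt;Sost-ko 3 and -0.30 without Jrt;Sost-ko 4, and it was -0.18 with skeletal muscle markers as a covariate (edgeR adjusted p = 0.663, 0.876 and 0.957). All 16 muscle markers had a log2 fold change below 0 in the same comparison, with a median of -0.99 and none called. Their summed level was 2580, 6826, 10900 and 30900 CPM in Jrt;Sost-het mice and 10140, 2295, 13490 and 35.7 CPM in Jrt;Sost-ko mice. Jrt;Sost-het 4 was thus far above its group and Jrt;Sost-ko 4 far below its own, while the other mice of the groups overlapped.

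*Pth1r* was by far the most abundant member. It had 51.1, 46.5, 73.7 and 105.6 CPM in WT mice, 102.1, 72.7, 72.7 and 70.8 CPM in Jrt;Sost-het mice and 72.7, 80.4, 78.4 and 62.8 CPM in Jrt;Sost-ko mice. WT mice spanned more than the whole range of the other groups. Means were 69.2 ± 27.0, 79.6 ± 15.0 and 73.6 ± 7.90 CPM (SD, n = 4), and the log2 fold change of Jrt;Sost-ko relative to Jrt;Sost-het was -0.11 (95% interval -0.41 to 0.19). Against WT the log2 fold change was 0.20 for Jrt;Sost-het and 0.09 for Jrt;Sost-ko. Without WT 3 and WT 4, which carried skin transcripts, the values relative to the 2 WT mice left, one of them WT 2 with the lowest osteoblast markers of all mice, were 0.72 for Jrt;Sost-het and 0.60 for Jrt;Sost-ko, which did not pass the threshold either (edgeR adjusted p = 0.12 and 0.294).

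Divided by exon length, the levels over 12 mice fell in the order *Pth1r* (25.3 CPM per kb), *Smo* (6.77), *Ptch1* (2.67), *Gli1* (1.01), *Ihh* (0.680), *Gli3* (0.666), *Gli2* (0.624), *Pthlh* (0.587) and *Hhip* (0.265). *Pth1r* exceeded *Smo*, *Smo* exceeded *Ptch1* and *Ptch1* exceeded *Gli1* in 12 of 12 mice. The middle of the order was not resolved, since *Ihh* was above *Gli3* in 4 of 12 mice, *Gli3* above *Gli2* in 7 and *Gli2* above *Pthlh* in 6. *Pthlh* exceeded *Hhip* in 12 of 12 mice.

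**Figure D2:**
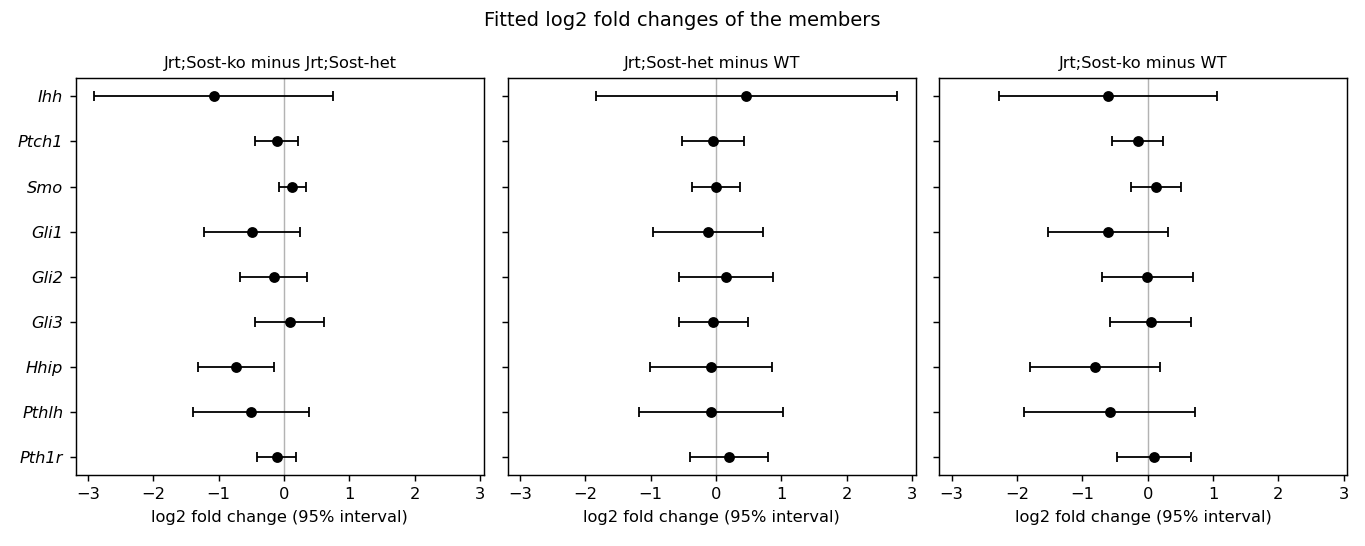
Log2 fold change of each member in the 3 comparisons (horizontal axis, points), with 95% intervals from edgeR's fit on the 8 mice compared. The interval of *Hhip* in Jrt;Sost-ko relative to Jrt;Sost-het, -1.32 to -0.15, is the one that leaves out 0, at an unadjusted level.

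All 9 members had enough counts to be tested in every comparison. For Jrt;Sost-ko relative to Jrt;Sost-het, 0 of 9 passed an adjusted p of 0.05, beside 0.00597% of the 16739 genes tested, which is *Sost* alone. An unadjusted p under 0.05 was reached by 1 member, *Hhip*, and by 5.02% of all genes. The unadjusted p of *Hhip*, 0.0199 in edgeR, was above 0.05 in a single fit of 12 mice (0.0816), without Jrt;Sost-het 1 (0.0569) and without Jrt;Sost-ko 2 (0.0534), while without Jrt;Sost-ko 3 *Gli1* and *Pthlh* were under 0.05 too. No member had groups that did not overlap, against 3.2% of all genes. The log2 fold change was above 0 for 2 members and below 0 for 7, with a median of -0.16, where 50.4% of all genes were above 0 and their median was 0.0013. A single mouse set that split, since without Jrt;Sost-het 1 it was 6 above and 3 below (median 0.03).

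For Jrt;Sost-het against WT, 0 of 9 members passed, as did 0% of 16775 genes (0 genes by DESeq2 and limma-voom too), and no member reached an unadjusted p of 0.05 (2.14% of all genes did). No member had groups that did not overlap (1.54% of all genes), and 4 members were above 0 and 5 below (51.3% of all genes above 0), with log2 fold changes from -0.12 for *Gli1* to 0.47 for *Ihh*. Without WT 4 all 9 were above 0, with a median of 0.32, and *Pth1r* reached an unadjusted p of 0.0387 in edgeR. For Jrt;Sost-ko against WT, 0 of 9 passed beside 0.00583% of 17155 genes, again *Sost* alone, and no member reached an unadjusted p of 0.05 (3.89% of all genes). No member was without overlap (2.4% of all genes), and 3 were above 0 and 6 below (49.1% of all genes above 0). Without WT 4 this became 6 above and 3 below, and without WT 2 it was 1 above and 8 below, with an unadjusted p of 0.012 in edgeR for *Hhip*. DESeq2 and limma-voom also called 0 members in each comparison. The comparisons share mice, so their directions are not independent of each other.

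Most transcripts of growth plate cartilage varied between mice together with *Ihh*. *Col10a1*, the collagen of hypertrophic chondrocytes, was at 581 CPM in WT 4 and 619 CPM in Jrt;Sost-het 1, against 0.0683 CPM (2 counts) in WT 2 and 7.23 to 147 CPM in the other mice. *Col2a1*, the main cartilage collagen, was at 1529 CPM in WT 4 and 2083 CPM in Jrt;Sost-het 1, and between 39.5 and 485 CPM elsewhere. *Col11a1*, the marker with the highest mean level in each group, varied less, from 614 CPM in WT 2 to 1472 CPM in WT 4 and 1565 CPM in Jrt;Sost-het 1. In WT 4 and Jrt;Sost-het 1 it was below *Col2a1*. *Sox6* did not follow the pattern, with 122 CPM in WT 4, 141 CPM in Jrt;Sost-het 1 and 142 CPM in WT 2. *Col10a1*, *Col2a1* and *Sox6* were named after their values were seen. Of 20 chondrocyte markers, 19 were in the matrix, and their summed level was 1455 to 6362 CPM in WT, 2170 to 7397 CPM in Jrt;Sost-het and 2477 to 3684 CPM in Jrt;Sost-ko mice. None of the 19 was called in Jrt;Sost-ko relative to Jrt;Sost-het (edgeR), where 3 had an unadjusted p under 0.05 and 16 were lower, with a median log2 fold change of -1.56. Jrt;Sost-het 1 stood far above its group here, and the other Jrt;Sost-het mice had summed levels of 2881, 2170 and 3027 CPM. *Col2a1* was at 184, 87.3 and 398 CPM in those mice and 58.4 to 485 CPM in Jrt;Sost-ko mice. By the median of each group, the summed level was 2954 CPM in Jrt;Sost-het and 3112 CPM in Jrt;Sost-ko mice. That sum is weighted to abundant genes, with *Col11a1* at 1350 of 2994 CPM in Jrt;Sost-ko 2. The mean log2 CPM of the list was 6.759, 4.435, 3.193 and 5.064 in Jrt;Sost-het mice 1 to 4. In Jrt;Sost-ko mice it was 5.019, 2.764, 3.514 and 4.135, with the groups overlapping. The summed medians therefore do not show that the list as a whole was not lower. In RNA of whole tissue, fewer cells of a type and less RNA per cell cannot be told apart, and the part of cartilage in the levels of the members was not tested.

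**Figure D3:**
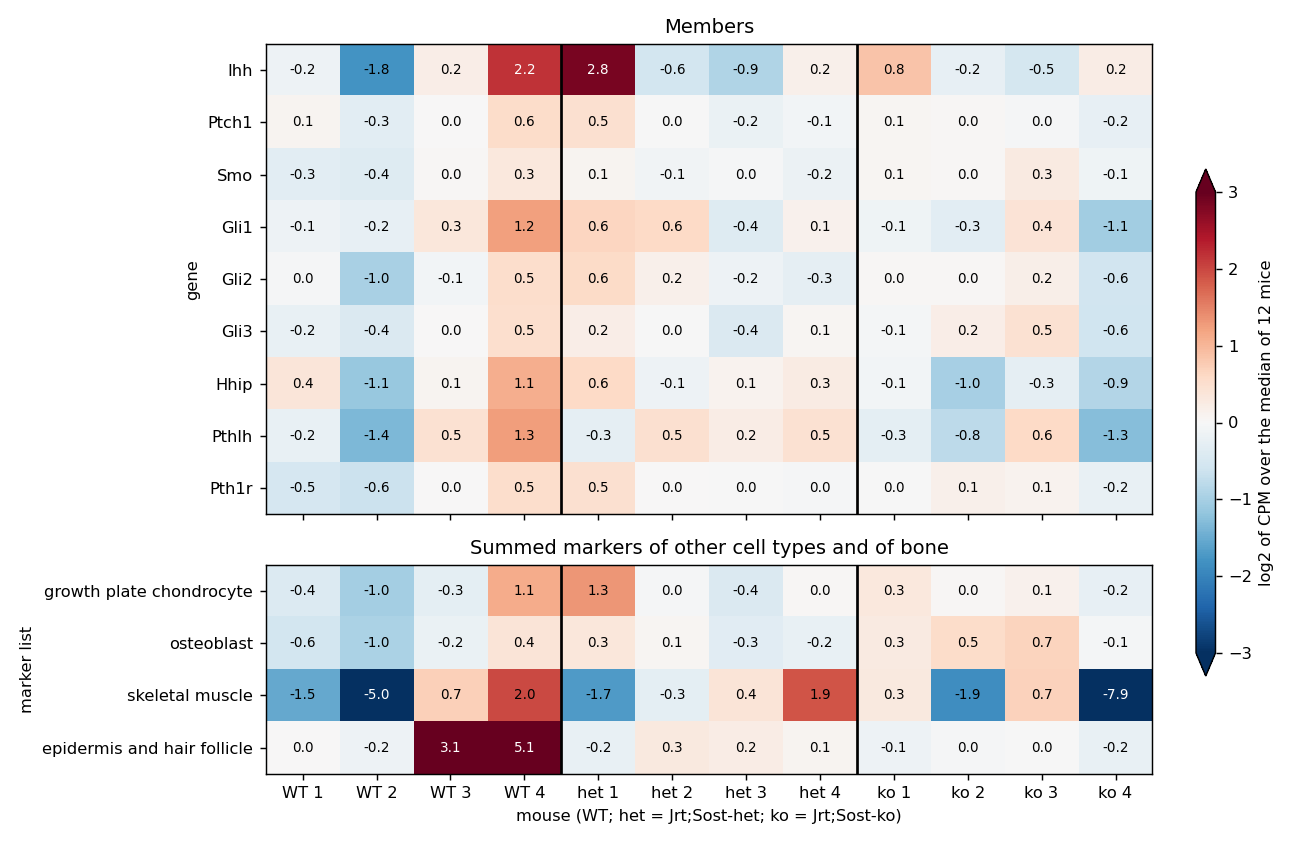
Log2 of the level of each member (upper panel) and of 4 summed marker lists (lower panel) over its median of 12 mice, by mouse (columns), in colour and as a number in each cell. WT 4 and Jrt;Sost-het 1 are above the median in *Ihh*, *Ptch1*, *Gli1*, *Hhip*, *Pth1r* and the chondrocyte markers, and WT 2 is below it in the same rows.

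WT 2, the lowest mouse for 7 of the 9 members, was also the lowest of the 12 mice for 7 of the 12 summed marker lists. Besides the chondrocyte list these were the markers of osteoblasts (23210 CPM), osteocytes (849 CPM), periosteal and stromal cells (3391 CPM), osteoclasts (2438 CPM), endothelium (549 CPM) and adipocytes (718 CPM). The same mouse was the highest for neutrophil markers, at 30110 CPM against 16330 to 25580 CPM in the others, with WT 4 the lowest. The part of this makeup in the levels of the members was not tested. Summed skeletal muscle markers (16 of 16 in the matrix) ran from 35.7 CPM in Jrt;Sost-ko 4 to 32760 CPM in WT 4, with 2580 CPM in Jrt;Sost-het 1. Summed epidermis and hair follicle markers were 241 CPM in WT 3 and 930 CPM in WT 4 and 23.7 to 34.0 CPM in the other mice, where *Krt77* and *Flg* were at 0 in all mutant mice. The osteoblast markers, led by *Col1a2*, were present in every mouse, at 23210 to 58970 CPM in WT, 35570 to 57160 CPM in Jrt;Sost-het and 42920 to 70800 CPM in Jrt;Sost-ko mice. In Jrt;Sost-ko relative to Jrt;Sost-het, 13 of the 14 osteoblast markers had a log2 fold change above 0, with a median of 0.34 and none called. Of the 14, 3 had an unadjusted p under 0.05 in edgeR and 2 had groups without overlap. Osteocyte markers were higher for 9 of 11 (median 0.34), with 5 at an unadjusted p under 0.05, 2 without overlap and none called. Over all genes the shares were 5.02% for such a p and 3.2% for no overlap.

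Relations between levels were computed on log2 CPM over the 12 mice for 8 pairs, with permutation p-values adjusted over the 8 and marker lists taken as the mean log2 CPM of their genes. *Ihh* followed the chondrocyte markers (Pearson r = 0.918, permutation p = 5e-05, adjusted 4e-04; Spearman rho = 0.797, permutation p = 0.00314, adjusted 0.0126). Without Jrt;Sost-het 1 and WT 4, r was 0.824 over the 10 mice left (permutation p = 0.0039), and within groups it was 0.932. Without WT 3 and WT 4 it was 0.893, and without Jrt;Sost-het 1 and WT 2 as well it was 0.646 over 8 mice and no longer passed the threshold (permutation p = 0.0835). *Pth1r* followed the osteoblast markers (r = 0.867, permutation p = 0.00031, adjusted 0.00124; rho = 0.888, permutation p = 0.00032, adjusted 0.00256), with r = 0.762 without WT 2 and WT 4, 0.965 within groups and 0.59 over the 8 mutant mice (permutation p = 0.104). That list does not contain *Pth1r*, and the chondrocyte list does not contain *Ihh*.

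The ligand and its target genes were related mainly through a few mice. *Ihh* and *Ptch1* had r = 0.886 (permutation p = 0.00073, adjusted 0.00195; rho = 0.657, permutation p = 0.0241, adjusted 0.0643), but r was 0.588 without Jrt;Sost-het 1 and WT 4 (permutation p = 0.0723) and 0.097 among the Jrt;Sost-ko mice. *Ihh* and *Hhip* had r = 0.689 (permutation p = 0.0135, adjusted 0.018; rho = 0.566, permutation p = 0.0591, adjusted 0.0945) and 0.385 without the same mice (permutation p = 0.277). *Ihh* and *Gli1* had r = 0.525 (permutation p = 0.0809, adjusted 0.0925; rho = 0.406, permutation p = 0.193, adjusted 0.221) and -0.056 without them (permutation p = 0.88). Without those mice, none of the 3 relations reached an unadjusted permutation p of 0.05.

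Among the target genes, *Gli1* and *Ptch1* had r = 0.766 (permutation p = 0.00327, adjusted 0.00654; rho = 0.608, permutation p = 0.0402, adjusted 0.0804) and *Gli1* and *Hhip* r = 0.718 (permutation p = 0.00808, adjusted 0.0129; rho = 0.545, permutation p = 0.0709, adjusted 0.0945). Without WT 4 and Jrt;Sost-ko 4 these became 0.559 and 0.457 (permutation p = 0.0828 and 0.193). The relation of *Pthlh* with *Ihh* did not pass the threshold (r = 0.314, permutation p = 0.323; rho = 0.070, permutation p = 0.837; both the same after adjustment), and r was -0.275 without WT 2 and WT 4. Leaving out WT 3 and WT 4, which carried skin transcripts, gave r = 0.852 for *Ihh* and *Ptch1* (rho = 0.576, permutation p = 0.0873). Without Jrt;Sost-het 1 and WT 2 as well, that r was 0.232 over 8 mice (permutation p = 0.579). Leaving out WT 3 and WT 4 ended the calls for *Ihh* with *Hhip* (r = 0.572, permutation p = 0.075), *Gli1* with *Ptch1* (0.63, p = 0.0538) and *Gli1* with *Hhip* (0.559, p = 0.0944).

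**Figure D4:**
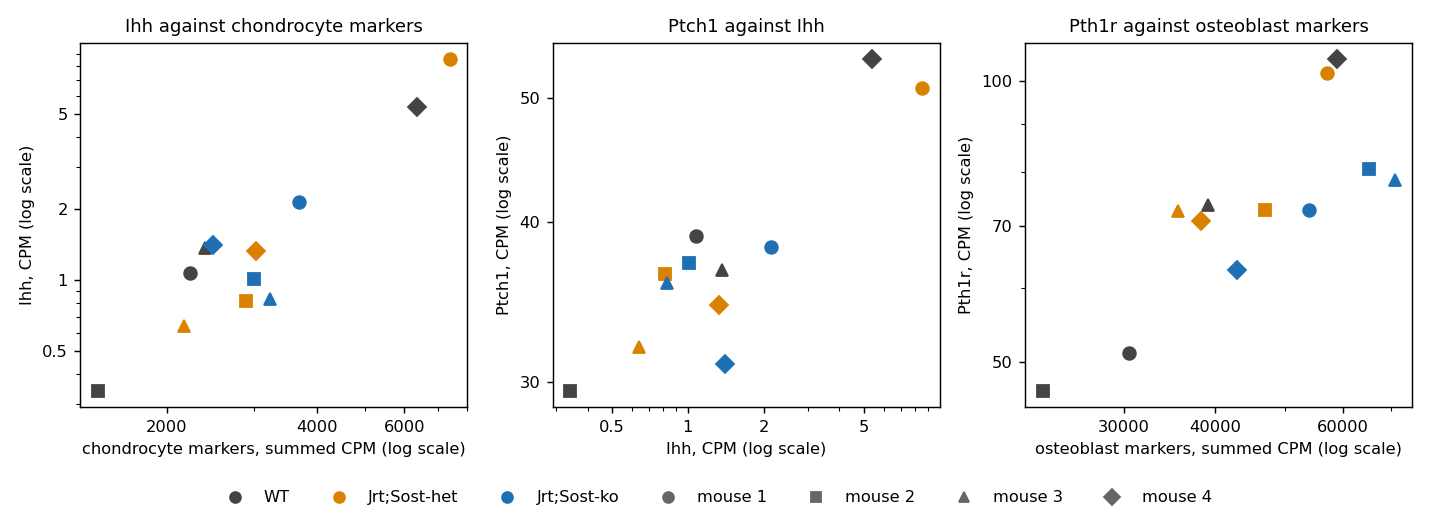
Level of *Ihh* against summed chondrocyte markers, of *Ptch1* against *Ihh* and of *Pth1r* against summed osteoblast markers, in CPM on logarithmic axes, 1 point per mouse. Jrt;Sost-het 1 and WT 4 have the highest levels of *Ihh*, *Ptch1*, *Pth1r* and the chondrocyte markers, Jrt;Sost-ko 3 and Jrt;Sost-ko 2 have the highest osteoblast markers, and WT 2 is the lowest mouse on every axis.

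The genes with levels most like each member were found among 17245 genes over the 12 mice, as a description with no test. *Ihh* was most like *Baiap2l1* (r = 0.973), *Chadl* (0.939) and *Panx3* (0.935). *Panx3*, a channel protein of hypertrophic chondrocytes and osteoblasts, was also among the nearest to *Ptch1* (0.927), after the cartilage collagen *Col27a1* (0.949) and before *Kctd4* (0.914). *Hhip* was most like *Pcolce2* (0.948), *Cpa6* (0.926) and *Chad* (0.922), the last a cartilage matrix protein. *Gli1* was nearest to *Gm5113* (0.935), *Hmcn1* (0.911) and *Kctd4* (0.91).

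*Smo* was most like *Tgfb3* (0.978), a transforming growth factor, *Ccdc149* (0.966) and *Plxna1* (0.961). *Gli2* was most like *Tgfbr2* (0.949), a receptor of that family, *Tsku* (0.948) and *Tanc1* (0.946). *Gli3* was nearest to *Armcx4* (0.94), *Zc3hav1l* (0.932) and *Ptpn4* (0.93). *Pthlh* was nearest to *A930018M24Rik* (0.973), *Tln2* (0.969) and *Ccdc136* (0.968), and *Pth1r* to *Tcaf1*, *Capn6* and *P3h4* (0.955 each), the last a protein of collagen lysine hydroxylation.

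The other genes of the pathways were read from 8 lists, and 0 of their genes passed an adjusted p of 0.05 in any comparison (edgeR). For Jrt;Sost-ko relative to Jrt;Sost-het, all 4 tested receptors and co-receptors were lower, with a median log2 fold change of -0.12, and 11 of 14 genes of signal transduction (*Sufu*, *Kif7* and others) were lower with a median of -0.04. Of 7 tested genes for the other ligands and their release, 4 were lower (median -0.05). Of 22 genes of the primary cilium, 15 were lower (median -0.08), and 8 of 11 tested further Gli targets were higher (median 0.14). An unadjusted p under 0.05 was reached by 1 receptor, *Cdon* (log2 fold change -0.9995, SE 0.317, groups overlapping), a co-receptor that binds the ligand, and by the Gli targets *Ccnd2* (0.33, SE 0.118) and *Bcl2* (0.34, SE 0.146). These 3 were named after their values were seen.

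On the parathyroid hormone side, 7 of 9 tested genes of the axis had a log2 fold change below 0 in Jrt;Sost-ko relative to Jrt;Sost-het (median -0.02). *Ramp2*, an accessory protein of G protein-coupled receptors that can pair with Pth1r, had 10.96, 14.67, 12.23 and 15.06 CPM in Jrt;Sost-het mice and 8.21, 9.34, 10.8 and 8.45 CPM in Jrt;Sost-ko mice, so the groups did not overlap. Its log2 fold change was -0.52 (SE 0.139), rank 45 by unadjusted p, and it did not pass the threshold (edgeR adjusted p = 0.901). In WT mice *Ramp2* ran from 5.30 to 13.6 CPM, a range that held all Jrt;Sost-ko mice and 2 of the 4 Jrt;Sost-het mice, with the other two above it. All 10 endothelial markers had log2 fold changes below 0 in Jrt;Sost-ko relative to Jrt;Sost-het (median -0.14), 3 at an unadjusted p under 0.05 and none called. Their summed level was 634 to 678 CPM in Jrt;Sost-het, 575 to 640 CPM in Jrt;Sost-ko and 549 to 664 CPM in WT mice, and their part in the level of *Ramp2* was not tested.

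*Ramp1*, of the same family, was also lower without overlap, at 39.5 to 43.5 CPM against 43.8 to 51.1 CPM (log2 fold change -0.15, SE 0.0679). The cilium gene *B9d1*, of the transition zone, was the third without overlap (1.81 to 2.43 CPM against 2.52 to 2.95 CPM; log2 fold change -0.33, SE 0.153), and WT mice had 1.196 to 2.47 CPM. Over all genes tested, 3.2% had groups without overlap. Of 29 genes of cAMP and protein kinase A signalling, 12 were higher and 17 lower, between -0.18 and 0.26.

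Among 17 tested genes that parathyroid hormone induces or represses in bone, 6 were higher and 11 lower for that comparison (median log2 fold change -0.06). The widest was *Nr4a3*, an immediate early nuclear receptor, at 1.76 with an SE of 1.002. Its relative *Nr4a2* had a log2 fold change of 0.74 (SE 0.268) with overlapping groups, and was the one with an unadjusted p under 0.05. Neither passed the adjusted threshold (edgeR adjusted p = 0.901 for each), and both were named after their values were seen.

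**Figure D5:**
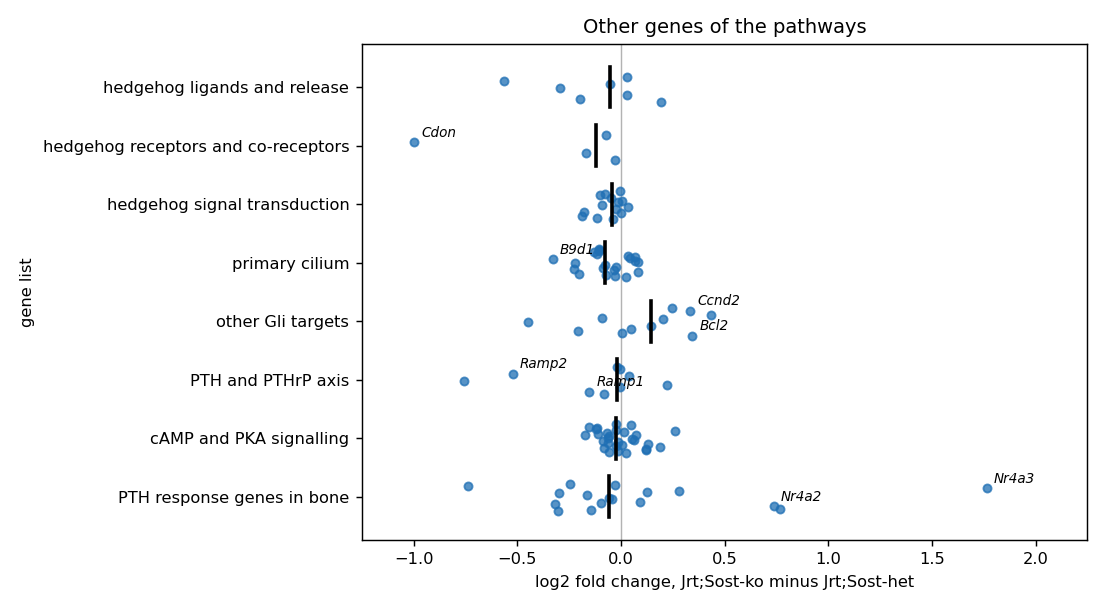
Log2 fold change of Jrt;Sost-ko relative to Jrt;Sost-het for each tested gene of 8 pathway lists (points, horizontal axis), with the list median as a black bar. The list medians lie between -0.12 and 0.14, and *Nr4a3* at 1.76 is the farthest gene.

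Against WT the same lists gave 0 calls too (edgeR), with an unadjusted p under 0.05 for *Fosb* in Jrt;Sost-het mice (log2 fold change 0.84) and for *Ramp1* (-0.21) and *Nr4a2* (0.97) in Jrt;Sost-ko mice, of which *Fosb* and *Nr4a2* were named after their values were seen. For Jrt;Sost-het mice the medians were between -0.02 for the further Gli targets and 0.24 for receptors and co-receptors, and for Jrt;Sost-ko mice between -0.02 and 0.12.

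Some reads of members may belong to neighbours on the opposite strand, because the strand setting of the counting is not given in the sources used here. *Pth1r* shares 95 exon bases with the muscle gene *Myl3*, which had 0.0652 to 4.15 CPM where *Pth1r* had at least 46.5 CPM. *Gli1* shares 62 exon bases with *Arhgap9*, a gene at 83.2 to 128 CPM and so far more abundant than *Gli1*. It also shares 265 exon bases with the antisense gene *Gm47200*, which is not in the matrix, so the level of *Gm47200* is not known. The levels of *Gli1* carry the uncertainty of both overlaps. *Gli3* and *Hhip* share 188 and 175 exon bases with the noncoding genes *Gm6556* and *Gm27820*.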

How the data were processed

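RNA of 12 tibia shafts was sequenced as read pairs, which the authors aligned to GRCm38 with STAR. The deposited matrix holds raw counts per Ensembl gene, without normalization, and the counting tool, its strand setting and the annotation release are not given in the sources used here. The 96 per-mouse columns of the authors' comparison tables, and their fold changes and p-values, were not used. Groups were compared pairwise, 8 mice at a time, with edgeR 4.0.16 under R 4.3.3 (filterByExpr, TMM, glmQLFit and glmQLFTest), with Benjamini-Hochberg adjustment over all genes tested and a threshold of 0.05. CPM were scaled by TMM over 12 libraries, and 2 was added as prior count for log2 CPM. For members an exact permutation test (two-sided, 70 arrangements) was run too, and relations were tested with 100000 permutations. GENCODE M21, which holds 98.9% of the identifiers, gave exon lengths and positions, and promoters came from RefSeq (GRCm38.p6). The functions were tested on simulated data.

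The members and the 20 gene lists (8 of pathways, 12 of cell types) were chosen with earlier results of these data known. Named were every member, the 3 genes most like each by Pearson correlation, *Sost*, pathway genes with an adjusted p under 0.05 or, up to 2 per list, without overlap of Jrt;Sost-ko with Jrt;Sost-het, and markers at 0 or most abundant. Other named genes are marked where they are named, apart from *Sufu* and *Kif7*, given as examples of a list, and the genes that share exon bases with members. Alternatives were DESeq2 1.42.0, limma-voom (3.58.1) with sample quality weights, other scalings and filters, a single fit of 12 mice, muscle markers as a covariate, leaving out each mouse, and leaving out WT 3 and WT 4. Leaving out Jrt;Sost-het 1 with WT 4 was chosen after seeing the data. Mice are separate animals, and the counts of mice of a group differed by more than counting error, with a chi-square per degree of freedom of 23.7 to 227 for each pair.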

Additional observations from a re-analysis of the deposited data

Results flagged for a closer look

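In groups of 4 mice, a mouse stood apart where its gap to the nearest other mouse, divided by the whole range of the group, was above 0.829. Of 42 groups of values tested, 3 did so, where chance gives about 2.1 (1 in 20). All 3 concerned Jrt;Sost-het 1 as the highest of its group. The groups of values come from the same mice and are not independent, so the 3 are not separate events. This quotient was 0.913 for *Ihh* (8.54 CPM, next 1.32), 0.938 for *Pth1r* (102.1 CPM, next 72.7) and 0.836 for the summed growth plate chondrocyte markers (7397 CPM, next 3027). Without this mouse the log2 fold change of Jrt;Sost-ko relative to Jrt;Sost-het was 0.53 for *Ihh* and 0.03 for *Pth1r*, neither past the threshold in edgeR.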

How the results depend on the processing

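The count of members called was 0 under every alternative run. Over 459 alternative values of the members' 27 log2 fold changes, 402 kept their direction, 57 changed it and none passed the threshold (lowest adjusted p 0.12). DESeq2 gave no adjusted p for 3 of them, Ihh, Hhip and Pthlh in Jrt;Sost-ko relative to Jrt;Sost-het. The count of all genes called moved for Jrt;Sost-ko relative to Jrt;Sost-het from 1 to 15 (DESeq2), 0 (limma-voom), 0 (muscle covariate) and 0 to 3 without single mice, and against WT from 1 to 14 (DESeq2), 2 (limma-voom), 2 (no filter) and 0 to 2 without single mice. With voom, log2 fold changes that turned were, for Jrt;Sost-het against WT, Ptch1 0.0207, Gli1 0.12, Gli3 0.0420, Hhip 0.0809 and Pthlh 0.20, and for Jrt;Sost-ko against WT, Ihh 0.14 and Gli2 0.14. With the muscle covariate, Smo became -0.0403 (Jrt;Sost-het against WT) and Gli2 0.21 (Jrt;Sost-ko against WT). Without WT 3 and WT 4, Jrt;Sost-het against WT gave Ptch1 0.18, Gli1 0.52, Gli3 0.31, Hhip 0.44 and Pthlh 0.92, and Jrt;Sost-ko against WT gave Ihh 0.90, Ptch1 0.0596, Gli1 0.0155, Gli2 0.38 and Pthlh 0.40. Without Jrt;Sost-het 1 and WT 4, Jrt;Sost-het against WT gave Ihh -0.0364, Gli1 0.16, Gli3 0.0829, Hhip 0.17 and Pthlh 0.56. Leaving out single mice turned the direction in these ranges. For Jrt;Sost-ko relative to Jrt;Sost-het they were Ihh -1.41 to 0.53, Ptch1 -0.20 to 0.048, Gli2 -0.26 to 0.024, Gli3 -0.081 to 0.24, Pth1r -0.16 to 0.026. For Jrt;Sost-het against WT they were Ihh -1.14 to 1.59, Ptch1 -0.21 to 0.13, Smo -0.086 to 0.15, Gli1 -0.27 to 0.30, Gli2 -0.047 to 0.41, Gli3 -0.16 to 0.17, Hhip -0.34 to 0.32, Pthlh -0.35 to 0.42. For Jrt;Sost-ko against WT they were Ihh -0.96 to 0.51, Ptch1 -0.27 to 0.025, Gli2 -0.21 to 0.25, Gli3 -0.12 to 0.26, Pth1r -0.057 to 0.37. Without a turn, they were Smo 0.051 to 0.18 and Gli1 -0.76 to -0.30 (Jrt;Sost-ko relative to Jrt;Sost-het), Pth1r 0.059 to 0.48 (Jrt;Sost-het against WT), and Smo 0.038 to 0.28, Gli1 -0.87 to -0.19, Hhip -1.08 to -0.41 and Pthlh -1.06 to -0.079 (Jrt;Sost-ko against WT). The cause was not tested. The log2 fold change of Hhip in Jrt;Sost-ko relative to Jrt;Sost-het stayed below 0 under all alternatives run, from -0.90 to -0.59. No paired analysis was possible because the replicate numbers follow the order of the labels and pair no mice. Depth limits Pthlh and Ihh most, with as few as 10 counts in a mouse.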
